A study of Mus musculus with 8 samples.

Results

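The mRNAs of 4 genes were followed in MC38 cells: Denr, Mcts1, Mcts2 and Eif2d. They were chosen by gene name, as DENR itself, its partner MCTS1, the Mcts1 retrogene copy Mcts2 and the related factor eIF2D, and they are 4 of the 20432 genes with values in both deposited tables. MC38 is a mouse colon adenocarcinoma cell line, and RNA-seq was made from control cells and from DENR KO cells, in which Denr had been targeted with Cas9 and an sgRNA delivered by lentivirus. Each genotype was left untreated or was given 20 ng/ml IFNγ for 4 h, with 2 samples in each of the 4 groups. Whether both DENR KO samples of a treatment carry the same sgRNA is not given in the sources used here. Part of the spread between these samples may therefore be technical. The p-values below rest on that spread combined with the spread of other genes of similar level, so they do not measure a gene's own spread alone.

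DENR and MCTS1 form a heterodimer that binds the small ribosomal subunit. After a short upstream open reading frame (uORF) has been translated, the dimer helps to remove the used tRNA, so that the subunit can resume scanning and start again at the main start codon. eIF2D is a larger protein that joins an MCTS1-like part and a DENR-like part in 1 chain and has overlapping activities. The questions that these rows address are how much Denr mRNA remained in the DENR KO cells, whether the partner or the paralogs moved with it, and whether IFNγ, the cytokine used to induce PD-L1, changed any of the 4.

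In GRCm38 coordinates, Denr lies on the plus strand at chr5:123907175-123928835. Its main GENCODE transcript, the one with the longest coding sequence, has 8 exons and 2339 bases, of which 594 are coding, so 25.4% of the transcript is coding. Mcts1 lies at chrX:38600578-38613426 on the plus strand, with 6 exons and 783 bases in its main transcript. Eif2d lies at chr1:131153181-131187658 on the plus strand, with 15 exons and 2009 bases. Mcts2 lies at chr2:152687035-152687951 on the plus strand, inside the gene H13 (a signal peptide peptidase). These deposited coordinates cover 917 bases and differ from those of its GENCODE model, which has 1 exon of 912 bases. Of 6 annotated H13 transcripts, 3 span Mcts2 and 2 end before it, and none has exon bases within it.

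Because Mcts2 is a retrogene copy of Mcts1, reads of the pair could be mixed. Their coding sequences have the same length, 543 bases, and differ at 81 of them (85.1% identical), 63 of these at the third codon position, 14 at the first and 4 at the second. Below, the first 30 coding bases (4 differences) are set beside the 30-base stretch that holds the most differences (9), at coding bases 409 to 438. Sequences are from the GENCODE transcripts of GRCm38, written 5′ to 3′, and capitals mark the bases that differ.
Mcts1, coding bases 1 to 30: atgttcaagaaatttgaTgaAaaAgaaaAt
Mcts2, coding bases 1 to 30: atgttcaagaaatttgaCgaGaaGgaaaGt
Mcts1, coding bases 409 to 438: gaAggAaaaCaAcatgcTTtAtgtgtGggT
Mcts2, coding bases 409 to 438: gaGggGaaaGaGcatgcCCtGtgtgtCggA
Within the aligned coding sequences, every window of 150 bases (the read length) held at least 18 differences, with a median of 22. No stretch of 50 bases was shared by the main transcripts. Denr and Eif2d shared no word of 31 bases with each other or with either Mcts gene. How the authors' counting treated reads with several matches was not given, and the counts of Mcts1 and Mcts2 are read with that limit.

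Between 17369020 and 18403790 reads fell on genes in a sample. Reads were plentiful for the 4 mRNAs: Denr was covered by 932 to 1439, Eif2d by 641 to 757, Mcts1 by 299 to 370 and Mcts2 by 247 to 359. Of the cell type markers, the leukocyte genes with values (at most 2 of 6 in a table) summed to at most 3.06 normalized counts in any sample. The genes of colon epithelium, the tissue of origin of the line (at most 5 of 8), summed to between 12.7 and 24.6. Cdh1 (E-cadherin) was the highest of them, at a mean of 11.9 in the untreated samples. The endothelial genes summed to between 15.6 and 31.2. The line thus carried little mRNA of the epithelial markers measured, while the fibroblast and mesenchymal markers, led by the filament gene Vim, summed to between 79378 and 92332 normalized counts. Of those 5 markers, Dcn, which encodes the matrix proteoglycan decorin, was called lower in DENR KO cells with IFNγ (−0.47, adjusted p 4.24e-05, limma) and untreated (−0.31, adjusted p 0.013), and its part in the results below was not tested. A normalized count here is the number of reads divided by a size factor of the sample. Differences are on the log2(normalized count + 1) scale, and a gene was called with an adjusted p-value under 0.05 (limma, Benjamini-Hochberg over all genes tested).

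Denr mRNA was reduced in DENR KO cells but far from absent. With IFNγ, its control samples stood at 1438 and 1401 normalized counts and its DENR KO samples at 946 and 957. The DENR KO samples lay below both control samples, as for 20.8% of the genes tested, and close to each other. The means were 1420 ± 25.5 and 951 ± 8.09 (SD, n = 2), and the log2 fold change was −0.58 (SE 0.071), with an adjusted p of 8.17e-06 (limma, Benjamini-Hochberg). Counting error alone amounted to 38.0 (control) and 30.5 (DENR KO) normalized counts in a sample. Both SDs were below it and understate the spread. In the DENR KO cells 67.1% of the control level remained, with a 95% confidence interval of 60.5% to 74.3%. In untreated cells, the control samples had 1448 and 1297 normalized counts and the DENR KO samples 943 and 916. Again the DENR KO samples lay below the control samples without overlap, as for 19.6% of the genes tested. The control samples were further apart than with IFNγ. The means were 1372 ± 107 and 929 ± 19.1 (SD, n = 2). The SD of the DENR KO samples was again below their counting error, which was 30.2. The log2 fold change was −0.56 (SE 0.078), with an adjusted p of 1.10e-04 (limma), and 67.8% of the control level remained (60.7% to 75.8%).

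Denr was the only member called in either comparison of the genotypes. With IFNγ, it was 1 of 4 members called, where 4.06% of the 13928 genes tested were called in either direction and 2.25% were called lower. By p-value it ranked 74 among the 314 genes called lower. In untreated cells it was again 1 of 4, where 0.579% of 13998 genes were called and 0.150% were called lower, and it ranked 5 among those 21. Ordered by fold change alone, called or not, Denr held position 396 from the bottom with IFNγ and 312 untreated. The test of the difference between the fold changes with and without IFNγ gave −0.02 (SE 0.10, adjusted p 0.996, limma), with a 95% interval of −0.23 to 0.19. Over both treatments, a fit added after the data were seen gave a log2 fold change of −0.57 (SE 0.051) and a remaining share of 67.2% (62.4% to 72.3%). In bulk RNA, a lower level in every cell and a mixture of cells with and without the transcript cannot be told apart, and these counts do not measure DENR protein. The paper reports the knockout of DENR in MC38 cells at the protein level by western blotting. The share of mRNA that remained is therefore not to be read as a share of protein.

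**Figure D1:**
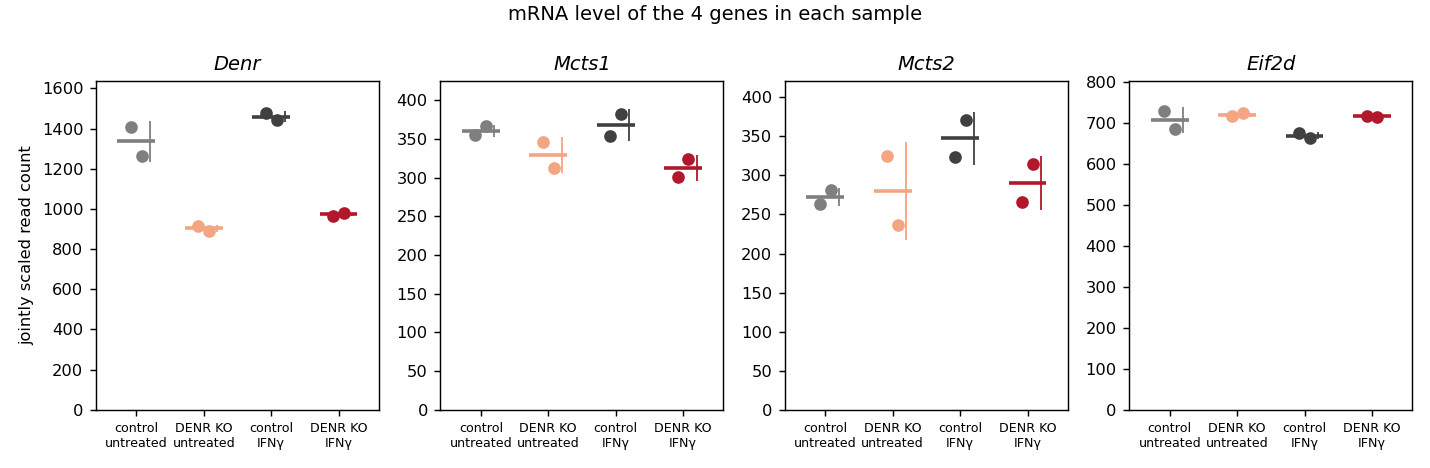
Level of each of the 4 mRNAs in the 8 samples, as reads divided by size factors estimated over all samples together (vertical axis, starting at 0 and scaled for each gene). Points are samples, horizontal lines are group means and vertical lines are ± 1 SD (n = 2). Denr was at 891 to 978 in the 4 DENR KO samples and at 1265 to 1478 in the 4 control samples, while the samples of the other genes lay closer together or overlapped.

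The tables of the IFNγ-treated and of the untreated samples were normalized separately, so levels across treatments were compared on reads scaled together over the 8 samples. On that scale, the order of Denr was control with IFNγ (1459 ± 26.3), control untreated (1336 ± 100), DENR KO with IFNγ (972 ± 8.01) and DENR KO untreated (903 ± 17.3, SD, n = 2 each). The genotypes were separated beyond their spread, and the 4 DENR KO samples were all below the 4 control samples, as for 2.14% of the genes tested. Within a genotype, the IFNγ-treated group had the higher mean. Treatment and table coincide, so IFNγ differences here and below cannot be told apart from differences in making the libraries. The IFNγ response of Denr was a log2 difference of 0.13 (SE 0.072, adjusted p 0.274, limma) in control cells, with a 95% interval of −0.02 to 0.28. It was 0.11 (adjusted p 0.469) in DENR KO cells, with an interval of −0.04 to 0.26. The upper bounds correspond to 121% and 119% of the untreated level.

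Mcts1 encodes the partner of DENR in the heterodimer. With IFNγ, its control samples reached 344 and 373 normalized counts and its DENR KO samples 294 and 317. The DENR KO samples were the lower pair and did not overlap with the control samples, a pattern that 20.8% of the genes tested showed. The log2 fold change was −0.23 (SE 0.11), with a 95% interval of −0.46 to −1.4e-05, an unadjusted p of 0.050 and an adjusted p of 0.373 (limma). In untreated cells, the control samples had 365 and 376 and the DENR KO samples 356 and 321. The groups again did not overlap, as for 19.6% of the genes, and the difference was −0.13 (SE 0.11, −0.36 to 0.10, adjusted p 0.770, limma). On the joint scale, all 4 DENR KO samples (301 to 346) were below all 4 control samples (354 to 383), as for 2.14% of the genes tested. Averaged over treatments, the added fit gave −0.18 (SE 0.076, unadjusted p 0.023, adjusted p 0.202, limma), a level of 88.0% of control with an interval of 78.9% to 98.1%. No call was thus reached for Mcts1. Counting error alone amounted to 17.3 to 19.4 normalized counts in a sample, about the size of the spread between replicates, which was 7.31 to 24.6 (SD, n = 2).

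For Mcts1, the log2 difference with IFNγ was 0.03 in control cells (−0.19 to 0.25, adjusted p 0.903, limma) and −0.07 in DENR KO cells (−0.30 to 0.15, adjusted p 0.791). Its joint means were 368 ± 20.5 and 361 ± 8.10 in control cells with and without IFNγ, and 313 ± 16.7 and 329 ± 23.5 in DENR KO cells (SD, n = 2). In each genotype the groups with and without IFNγ did not differ beyond this spread. The ratio of Denr to Mcts1 reads was 3.45 to 4.18 in the control samples and 2.65 to 3.21 in the DENR KO samples.

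Mcts2, the retrogene, encodes a protein of the same length as MCTS1. Its replicates had the largest SD relative to their mean, 22.5% in untreated DENR KO cells. With IFNγ, the control samples had 315 and 361 normalized counts and the DENR KO samples 260 and 308, so the groups were close but did not overlap, as for 20.8% of the genes tested. The log2 fold change was −0.25 (SE 0.12, −0.50 to −0.0043, unadjusted p 0.046, adjusted p 0.359, limma). In untreated cells, the control samples had 272 and 288, and the DENR KO samples lay on either side of them at 335 and 243. That pair had an SD of 64.9 against a counting error of 16.8. The log2 fold change was 0.03 (SE 0.14, −0.26 to 0.31, adjusted p 0.973, limma), and it was 0.26 without the lower and −0.20 without the higher of the DENR KO samples. The difference between the fold changes with and without IFNγ was −0.29 (SE 0.20, −0.69 to 0.12, adjusted p 0.986).

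The largest IFNγ difference among the members was that of Mcts2 in control cells, from 272 ± 11.9 to 347 ± 34.1 on the joint scale (SD, n = 2). The 2 groups did not overlap, as was so for 25.5% of the genes tested in that direction. The log2 difference was 0.35 (SE 0.14, 0.06 to 0.64), with an unadjusted p of 0.020 and an adjusted p of 0.104 (limma), and so it was not called. In DENR KO cells the difference was 0.06 (−0.23 to 0.35, adjusted p 0.880). H13, whose introns surround Mcts2 in 3 transcripts, had between 2322 and 2628 joint counts in the 8 samples. Its own IFNγ difference was −0.06 in control cells (adjusted p 0.618, limma) and its DENR KO effect was 0.10 with IFNγ (adjusted p 0.566) and 0.07 untreated (adjusted p 0.801). H13 mRNA therefore showed no call in any of these comparisons, and reads from unspliced H13 RNA within Mcts2 were not tested.

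Mcts2 supplied 42.7% to 49.2% of the reads counted on Mcts1 and Mcts2 together, so the reads of the pair were divided almost evenly. Summing both, which removes any exchange of reads between the copies, was an alternative added after the data were seen. The sum had a DENR KO effect of −0.24 with IFNγ (SE 0.092, −0.43 to −0.05, unadjusted p 0.016, adjusted p 0.199, limma). In untreated cells it was −0.06 (SE 0.097, −0.26 to 0.14, adjusted p 0.907). No rise of the pair in DENR KO cells was thus called. The interval of the sum ended at 0.14 on the log2 scale in untreated cells and at −0.05 with IFNγ. With so few samples in a group and an adjusted p of 0.199 with IFNγ, these ends are not read as limits. A rise of the pair is therefore not excluded in either treatment.

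Eif2d encodes the factor closest in architecture to the DENR and MCTS1 pair, and its replicates were close, with SDs of 0.138% to 4.71% of the mean. Counting error alone amounted to 25.7 to 27.1 normalized counts in a sample. The SDs were 8.81 (control) and 0.969 (DENR KO) with IFNγ, and 34.2 (control) and 4.32 (DENR KO) untreated. SDs below the counting error understate the spread. With IFNγ, the control samples had 658 and 645 normalized counts and the DENR KO samples 702 and 700. The DENR KO samples were both higher, a pattern of 21.1% of the genes tested. The log2 fold change was 0.11 (SE 0.084, −0.07 to 0.28, adjusted p 0.676, limma). In untreated cells, the control samples had 752 and 703 and the DENR KO samples 738 and 744, which fell between them. The log2 fold change there was 0.03 (SE 0.086, −0.15 to 0.20, adjusted p 0.954, limma). The upper bounds of these intervals were 0.28 on the log2 scale with IFNγ and 0.20 without. With so few samples in a group, they are not hard limits on a rise of Eif2d mRNA. On the joint scale, its means were 670 ± 9.09 (control with IFNγ), 708 ± 31.4 (control untreated), 716 ± 1.18 (DENR KO with IFNγ) and 720 ± 5.18 (DENR KO untreated, SD, n = 2). The last 3 of these did not differ beyond their spread. The lower mean of control cells with IFNγ is not read as a separation, because its SD was below the counting error. The IFNγ difference was −0.08 in control cells (−0.25 to 0.09, adjusted p 0.597, limma) and −0.0074 in DENR KO cells (−0.17 to 0.16, adjusted p 0.977).

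Of the 3 members other than Denr, limma thus called 0 in either comparison of the genotypes. At an unadjusted p under 0.05 the count was 2 of 3 with IFNγ, where 13.4% of all genes passed, and 0 of 3 untreated, where 9.25% did. The count tests edgeR and DESeq2 on the recovered reads also called 0. For IFNγ, limma called 0 of the 4 members in control cells, where 15.4% of 13999 genes were called, and 0 of 4 in DENR KO cells, where 9.86% were. The unadjusted counts were 1 of 4 and 0 of 4, beside 26.3% and 19.8% of all genes, and edgeR and DESeq2 called none. In the same limma fit, Irf1, an interferon-induced transcription factor, was higher in the IFNγ-treated samples. Its log2 difference was 3.68 in control cells (adjusted p 1.28e-24, limma) and 3.10 in DENR KO cells (adjusted p 6.03e-23). For the interaction of genotype and treatment, 0 of 4 members were called by any of the 3 tests, beside 0.464% of all genes called by limma, and none passed unadjusted, beside 5.73% of all genes.

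**Figure D2:**
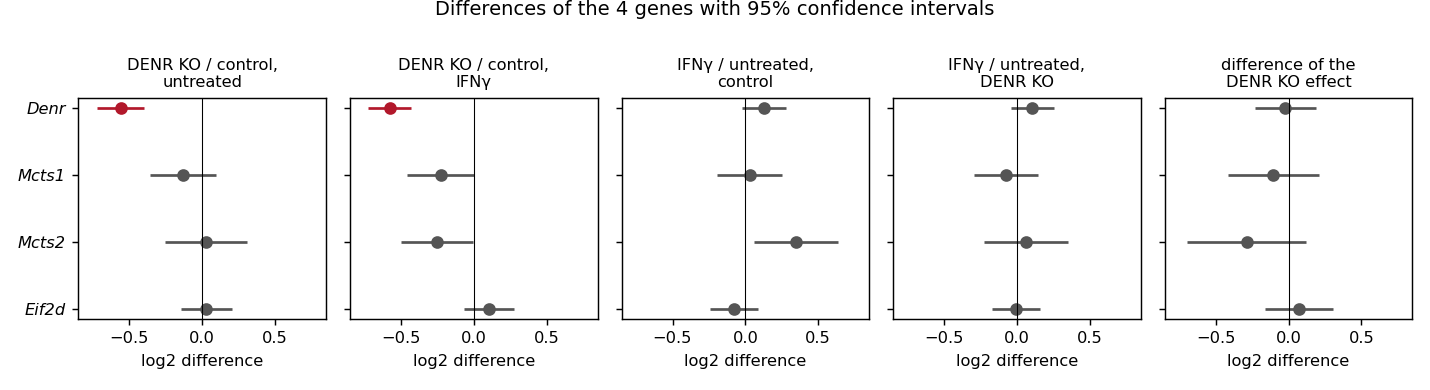
Log2 differences of the 4 mRNAs (points) with 95% confidence intervals (lines) in 5 comparisons, on the same horizontal axis. Red marks an adjusted p under 0.05, which Denr reached in both comparisons of the genotypes (−0.56 and −0.58), and grey marks all others.

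Levels of different genes were compared per length. Divided by the gene length of the tables, which joins the exons of all isoforms (6094 bases for Denr, 1571 for Mcts1, 917 for Mcts2 and 7374 for Eif2d), the joint counts per kb in control cells with IFNγ were 379 ± 37.1 for Mcts2, 239 ± 4.32 for Denr, 235 ± 13.1 for Mcts1 and 90.8 ± 1.23 for Eif2d (SD, n = 2). Denr and Mcts1 did not differ beyond their spread on this scale. Divided by the length of the main transcript instead, an alternative added later, the same samples gave 624 ± 11.3 for Denr, 471 ± 26.2 for Mcts1, 381 ± 37.3 for Mcts2 and 333 ± 4.53 for Eif2d. The order of the 4 genes thus changed with the length used. Eif2d was lowest per kb of table length in all 4 groups, but per kb of the main transcript Mcts2 had the lowest mean in the other 3 groups: 318 ± 37.8 against 357 ± 0.588 for Eif2d in DENR KO cells with IFNγ, 299 ± 13 against 352 ± 15.6 in untreated control cells and 308 ± 68.8 against 358 ± 2.58 in untreated DENR KO cells. In the last of these, the difference was within the SD of Mcts2. In DENR KO cells on the main-transcript scale, Denr and Mcts1 had 416 ± 3.42 and 399 ± 21.3 counts per kb with IFNγ and 386 ± 7.40 and 420 ± 29.97 untreated, so the order of the means turned between treatments. Per kb of table length, Mcts1 was above Denr in both DENR KO groups, at 199 ± 10.6 against 160 ± 1.31 with IFNγ and 210 ± 14.9 against 148 ± 2.84 untreated.

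Neighbors of Denr on chromosome 5 were read to see whether the lower level extended beyond the gene. Within 250 kb, 9 genes had a mean level of at least 100. None of the 9 was called lower in DENR KO cells with either treatment, and their log2 fold changes ran from −0.11 to 0.28 with IFNγ and from −0.14 to 0.17 untreated. Of the 2 nearest on each side, Rsrc2, which encodes an arginine- and serine-rich protein, had 0.04 with IFNγ (adjusted p 0.891, limma) and −0.09 untreated. Kntc1, which encodes a kinetochore protein, had −0.05 (adjusted p 0.808) and −0.14. On the other side, Hip1r, an actin-binding endocytic protein, had 0.16 (adjusted p 0.272) and −0.01. Vps37b, a subunit of the ESCRT-I sorting complex, had 0.10 (adjusted p 0.682) and 0.03. Pitpnm2, 190 kb away and named because it was the only neighbor called, was higher in DENR KO cells with IFNγ (0.28, SE 0.072, adjusted p 0.028) and had 0.15 untreated (adjusted p 0.576). The gene model Gm43518 shares 51 exon bases with Denr on the same strand, and its mean level was 1.86 counts, so its reads are few beside those of Denr. Eif2d shares 78 exon bases with Rassf5 on the opposite strand. The use of strand in the counting was not given.

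**Figure D3:**
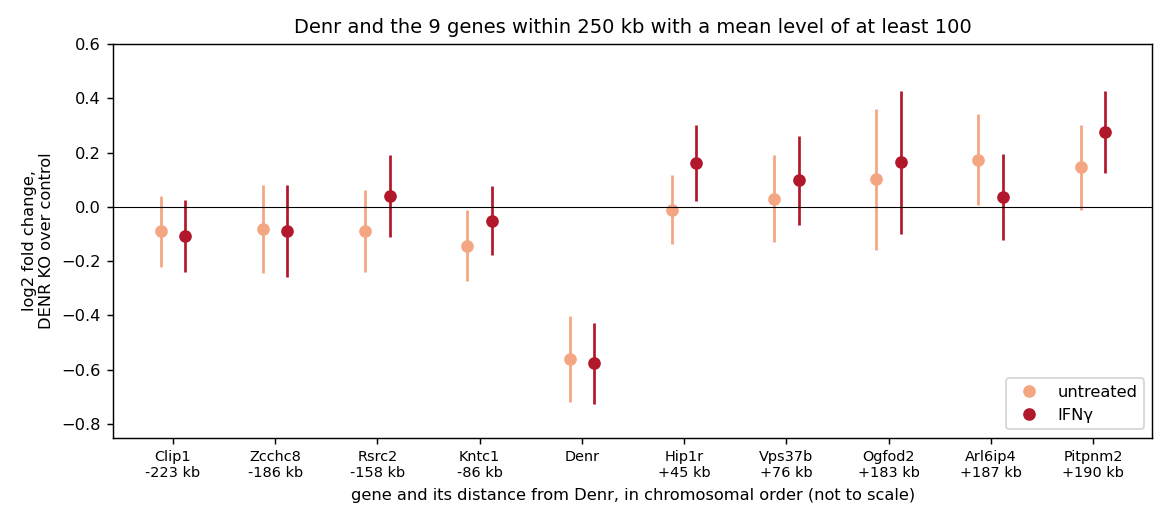
DENR KO effect on the log2 scale (vertical axis, points with 95% confidence intervals) for Denr and its 9 neighbors with a mean level of at least 100, in chromosomal order, with the distance from Denr under each name. Denr lies at −0.56 and −0.58, and the neighbors lie between −0.14 and 0.28.

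The other factors of start, reinitiation and recycling were read as 5 lists of 34 genes, all of which were tested. In DENR KO cells with IFNγ, 1 of 34 was called lower, where 2.25% of all genes were, and 0 higher, with a median log2 fold change of −0.03 beside −0.00036 over all genes. The gene was Eif2ak2, the double-stranded RNA kinase PKR that phosphorylates eIF2α. Its control samples had 1643 and 1685 normalized counts and its DENR KO samples 1333 and 1362, a fold change of −0.30 (SE 0.067, adjusted p 0.0075, limma). Untreated, the control samples had 839 and 963 and the DENR KO samples 818 and 771 (−0.18, adjusted p 0.537). In untreated cells limma called 0 of 34, beside 0.579% of all genes, and edgeR and DESeq2 also called 0. At an unadjusted p under 0.05 the limma count was 5 of 34 untreated, beside 9.25% of all genes, and 2 of 34 with IFNγ, beside 13.4%. The median was −0.02 beside 0.0019 over all genes.

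By role, the list of other reinitiation and eIF2-independent factors (6 genes, among them the eIF3 subunits Eif3h and Eif3b and the eIF4G relative Eif4g2) had no call and a range of −0.09 to 0.06 with IFNγ and −0.06 to 0.09 untreated. Eif2a, which can bring initiator tRNA to the ribosome without eIF2, had 0.03 and −0.00013. Of 9 genes for eIF2 and start codon selection, none was called. Eif2s1, the eIF2α subunit, had 0.01 with IFNγ and 0.0041 untreated. Eif1, which guards start codon choice, had 0.03 and 0.17 (adjusted p 0.304 untreated, limma), and Eif5b, which joins the subunits, had −0.0031 and −0.15 (adjusted p 0.388 untreated). Of 6 genes for termination and recycling, none was called. Abce1, which splits ribosomes, had −0.11 (adjusted p 0.483) and −0.17 (adjusted p 0.326), and Pelo, which rescues stalled ribosomes, had 0.0065 and −0.06. Of 11 genes for eIF2B and eIF2α phosphorylation, Eif2ak2 with IFNγ was the only call.

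Atf4 and Clock, whose mRNAs carry uORFs and are known for translation that depends on DENR, were measured as mRNA only. Atf4 encodes a stress-response transcription factor. With IFNγ, its control samples had 6957 and 7405 normalized counts and its DENR KO samples 6597 and 6826 (−0.10, adjusted p 0.479, limma), and its untreated fold change was 0.010 (adjusted p 0.977). Clock, a circadian transcription factor, had −0.0022 with IFNγ (adjusted p 0.995) and −0.22 untreated (adjusted p 0.387). Its untreated samples were spread widely, from 1623 to 1881 in the control pair and from 1394 to 1615 in the DENR KO pair. Neither mRNA was called between the genotypes.

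**Figure D4:**
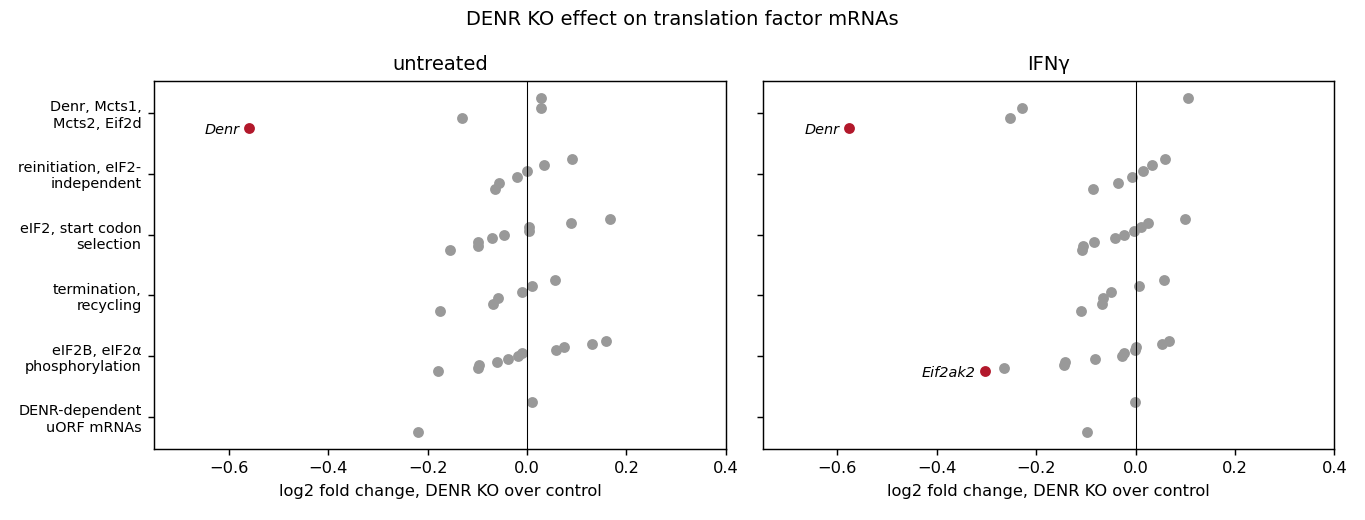
DENR KO effect on the log2 scale (horizontal axis) for the 4 members and the 34 genes of the 5 lists, untreated (left) and with IFNγ (right), with 1 point for each gene. Red marks an adjusted p under 0.05, which Denr reached in both panels and Eif2ak2 with IFNγ, and the other list genes lie between −0.27 and 0.17.

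With IFNγ, 4 of the 34 mRNAs were called in control cells, all higher, where 15.4% of all genes were called (median 0.08 beside −0.0041 over all genes). They were Eif2ak2 (0.97, adjusted p 4.29e-10, limma), Eif1a (0.35, adjusted p 1.06e-04), Atf4 (0.18, adjusted p 0.024) and Etf1, the release factor eRF1 (0.17, adjusted p 0.042). In DENR KO cells 3 of 34 were called, all higher, where 9.86% of all genes were called (median 0.05 beside −0.0077). They were Eif2ak2 (0.83, adjusted p 9.92e-09), Eif1a, which encodes a scanning factor (0.24, adjusted p 0.0098), and Eif2s3x, the eIF2γ subunit (0.19, adjusted p 0.044). On the recovered reads, edgeR called 3 in each genotype, and DESeq2 called 4 in control cells and 2 in DENR KO cells. No gene of the lists was called for a difference between the genotypes' responses, and none passed unadjusted by limma, while edgeR and DESeq2 also called 0. Treatment and table go together, so an effect of IFNγ and any difference in the making of the 2 sets of libraries cannot be told apart.

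The genes whose levels ran closest to those of the members were named by Pearson's r of log2 levels over the 8 samples, among 10412 genes whose mean was 100 or more. The samples share the 4 groups, so these values describe the groups as much as the genes. For Denr they were Lars (0.989), which encodes leucyl-tRNA synthetase, Uba1 (0.967), the ubiquitin-activating enzyme, Ifitm1 (0.966), an interferon-induced membrane protein, Prl2c3 (0.961) and Acat2 (0.959). Denr was lower in DENR KO cells, so genes chosen for following it tend to be lower there too. Their calls are therefore a description and no separate evidence. Of these genes, Ifitm1 was called lower in DENR KO cells in both treatments (−0.80 with IFNγ, adjusted p 2.27e-08, and −0.54 untreated, adjusted p 8.96e-05, limma). Prl2c3, a member of a family of near-identical genes whose counts are uncertain, was also called in both (−1.01 and −0.82), as was Acat2, an acetyl-CoA acetyltransferase (−0.32 and −0.41). Lars, the closest, changed by less than Denr and was not called: −0.17 (adjusted p 0.117) and −0.13 (adjusted p 0.494). For Mcts1 the closest were an unnamed locus (0.951), Vezt (0.944) and Rnh1, the ribonuclease inhibitor (0.942). For Eif2d they were Armcx4 (0.988), Taz (0.975) and the kinase gene Nuak1 (0.973). Between the members themselves, r was 0.79 for Denr and Mcts1, 0.63 for Mcts1 and Mcts2, 0.40 for Denr and Mcts2, and from −0.70 to −0.65 for Eif2d with the others.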

How the data were processed

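RNA-seq of 8 samples was analysed in 4 groups of 2. The authors deposited 1 table for each treatment, with a normalized signal for each gene (reads over the size factor of the sample), beside group means and their own fold changes and p-values, which were not used here. The submitters' processing notes name HISAT2 (2.0.5), StringTie (1.3.3b), featureCounts (1.5.0-p3) and DESeq2 (1.20.0) and the build mm9, while the tables' gene coordinates are those of GRCm38, which were used. In every sample 100% of values were whole multiples of what 1 read is worth (tolerance 0.02), so reads were recovered.

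DENR KO and control were compared within each table by limma (3.58.1, R 4.3.3) with trend and robust moderation, two-sided, on log2 of the value plus a pseudocount of 1. Genes whose mean was below 10 were left out, and p-values were adjusted by Benjamini-Hochberg. IFNγ responses and the interaction used the recovered reads of all 8 samples divided by median-of-ratios size factors estimated together. edgeR (4.0.16) and DESeq2 (1.42.0) on recovered reads were alternatives, with other pseudocounts, filters, scaling, left-out samples and a replicate term. Each test was tested on simulated data. Gene models and coding sequences were those of GENCODE for GRCm38, read with Python (3.11.15).

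The members, gene lists and tests were chosen with earlier results of these data known. Named genes were the members, the list genes that passed a test and 8 others fixed by name, H13, the 2 nearest neighbors of Denr on each side, and the genes most like Denr (5), Mcts1 (3) and Eif2d (3). Of the cell type markers, Dcn passed between the genotypes. Irf1, Pitpnm2, Gm43518, Rassf5, Vim and Cdh1 were added. Replicates of a group differed by more than counting noise (chi-square per gene 3.49 to 5.90), so none is a library deposited again. Intervals of counts cover counting error only.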

Additional observations from a re-analysis of the deposited data

How the results depend on the processing

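The DENR KO effect on Denr was called in all 13 alternatives of each treatment, from −0.60 to −0.56 with IFNγ and from −0.64 to −0.48 untreated. The other members were called in none of the alternatives of any comparison, and sign changes came only from leaving out a sample: the untreated DENR KO effect ran from −0.20 to 0.26 for Mcts2 (−0.01 without control replicate 1, −0.20 without DENR KO replicate 1) and from −0.021 to 0.075 for Eif2d, the IFNγ response from −0.027 to 0.086 for Mcts1 in control cells and from −0.17 to 0.29 for Mcts2 in DENR KO cells (−0.06 without IFNγ-treated replicate 2, −0.17 without untreated replicate 2), and the interaction of Denr from −0.10 to 0.054. Per kb of the main transcript, the means over 8 samples were 499 for Denr (192 per kb of table length), 438 for Mcts1 (218), 350 for Eif2d (95.4) and 326 for Mcts2 (324). Samples left alone in a group were assumed to vary like the other groups.

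Counts of all genes called moved more. Requiring a log2 fold change beyond 0.5 left 143 lower and 72 higher with IFNγ, 12 and 18 untreated, 295 and 727 in the IFNγ response of control cells and 94 and 541 in that of DENR KO cells. DESeq2 gave 122 higher with IFNγ, 13 lower and 37 higher untreated, and 566 and 228 lower in the IFNγ responses of control and DENR KO cells. With samples left out, the counts were 281 to 307 lower and 146 to 341 higher with IFNγ, 15 to 41 lower and 20 to 61 higher untreated, 563 to 726 lower in the response of control cells, 144 to 289 lower in that of DENR KO cells, and 38 to 83 lower and 1 to 11 higher for the interaction. The cause was not tested.

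The numbers of the replicates are not stated to mark a shared batch. Deviations of same-numbered samples from their group means correlated between the genotypes at 0.22 with IFNγ and 0.05 untreated. With 2 samples per group, the deviations within a group mirror each other, so the pairs of a treatment are not independent. With the replicate number as a block, 729 genes were lower and 726 higher with IFNγ, 89 and 168 untreated, and 10 higher for the interaction, and the block changed no call of a member. With 2 samples per group, the 95% intervals of Mcts2 reached from −0.50 to 0.64 over the comparisons of groups.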
